A study of Arabidopsis thaliana with 42 samples.

Results

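The transcript response of leaves of the Arabidopsis thaliana triple mutant cbp60a cbp60g sard1 to the bacterium Pseudomonas syringae pv. maculicola ES4326 (Pma) was described from 6 libraries of a series of 42. These were the 3 libraries titled as triple mutant with Pma and the 3 titled as triple mutant with mock, matched by the experiment number in the title. Plants in the Col-0 background were 30 days old, and leaves received either Pma at an OD600 of 0.0002 in 5 mM magnesium sulfate or the magnesium sulfate solution alone. Leaves were taken 24 h later, and 2 leaves made 1 sample. Each of 3 independent experiments held 1 sample of each genotype and treatment, so n = 3 means 3 experiments. The triple mutant was set beside wild type Col-0, the single mutant cbp60a and the double mutant that the labels spell chp60g sard1 (read here as cbp60g sard1), each with 3 mock and 3 Pma libraries. Which alleles the mutants carry is not given in the sources used here.

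CBP60g and SARD1 are related plant transcription factors that switch on ICS1, whose product makes isochorismate, the precursor of the defence hormone salicylic acid, and they also act on genes of the N-hydroxypipecolic acid pathway, which primes distant leaves. CBP60a is a calmodulin-binding member of the same family that has been described as a negative regulator of this defence. Salicylic acid acts through NPR1 on marker genes such as PR1, whereas jasmonate, a second hormone that Pma exploits through the toxin coronatine, acts through COI1 and the JAZ repressors and often opposes salicylic acid.

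The triple mutant libraries ranged from 991795 to 1570526 counts for mock and from 1139523 to 1773712 for Pma, and detected 17127 to 18346 loci. The first principal component of all 42 libraries carried 71.5% of the variance, and the second 6.68%. Among the Pma libraries of the 4 genotypes used here, those of experiment 3 from the triple mutant and from chp60g sard1 stood apart, with scores of 75.4 and 78.8 on the first component and 83.5 and 80.5 on the second. The other triple mutant Pma libraries scored 117.2 and 97.9 on the first and -8.2 and 49.7 on the second. The first cbp60a mock library stood apart as well, at -69.3 on the first component against -112.1 and -123.1 for the other cbp60a mock libraries. Counts of differing genes are given with and without these libraries. The named differences from wild type that passed without the experiment 3 Pma library of the triple mutant are listed with those counts. Other named differences from wild type did not pass without it. Levels are CPM, a gene's counts relative to its library's total, scaled by TMM factors, and changes are fitted log2 values ± SE from the quasi-likelihood test of edgeR with the experiment as a block, called at an adjusted p under 0.05 over 15161 genes. Where a change did not have 1 sign in all 3 experiments, the number that had it is given. Tags came from bulk leaves, so fewer cells of a type and less RNA per cell cannot be told apart.

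The 3 mutated genes still gave tags at the 3' end. CBP60A was at 12.7, 14.4 and 9.37 CPM in the mock libraries of experiments 1 to 3 and at 22.5, 19.9 and 22.6 in Pma. All 3 Pma values lay above the mock values, and CBP60A rose (0.84 ± 0.27, adjusted p = 0.00858, edgeR). CBP60G went from 10.4, 3.6 and 3.51 CPM to 44.5, 19.1 and 21.2, without overlap, and rose as well (2.23 ± 0.50, adjusted p = 0.000315). Its mean in wild type went from 5.71 ± 6.36 to 255 ± 18.1 CPM (SD, n = 3), so that its rise was smaller in the triple mutant (difference in log2 response -3.21 ± 0.72, adjusted p = 0.0126). SARD1 was at 5.95, 6.48 and 7.03 CPM in mock and 8.9, 18.2 and 7.07 in Pma, a change of 0.81 ± 0.68 that did not pass (adjusted p = 0.313). In wild type SARD1 went from 3.75 ± 0.822 to 250 ± 30.8 CPM, and the difference in response was -5.26 ± 0.98 (adjusted p = 0.00392). A tag at the 3' end may lie outside the altered part of a gene, so these levels do not check the genotypes. SARD1 also overlaps a neighbouring gene at its end in the TAIR10.1 annotation, and its tags could not be assigned by strand here.

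Most tested genes passed the test for a response to Pma in the triple mutant. Of the 15161 tested genes, 8843 passed (58.3%), 4213 higher (27.8%) and 4630 lower (30.5%). For 8174 genes (53.9%) the 3 mock and the 3 Pma libraries did not overlap. At least 4-fold changes were fitted for 1697 of the genes that rose and 2214 of those that fell, and at least 16-fold changes for 699 and 515. The same test gave 10051 genes in wild type, 8699 in chp60g sard1 and 9585 in cbp60a. A fit of the 6 triple mutant libraries alone, which has fewer libraries to estimate the spread, called 5463 genes, 2582 higher and 2881 lower.

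Genes of salicylic acid synthesis rose in the triple mutant, with ICS1 well under its wild type response. In the list of the isochorismate route and the EDS1 module, 11 of 15 members rose and none fell. Of all tested genes 27.8% rose and 30.5% fell. The median change was 1.76, against 2.55 in wild type and -0.04 over all tested genes. ICS1 was at 8.19, 18 and 10.5 CPM in mock and 34.6, 36.5 and 60.8 in Pma. The groups did not overlap and ICS1 rose (1.76 ± 0.47, adjusted p = 0.00172), yet its wild type mean went from 17.8 ± 2.36 to 542 ± 203 CPM, a larger rise (difference -3.09 ± 0.65, adjusted p = 0.0083). EDS5, which exports isochorismate from the chloroplast, went from 6.7, 5.04 and 1.17 CPM to 251, 325 and 256. It rose by 5.90 ± 0.74 (adjusted p = 5.61e-08), and its difference from wild type, which reached 703 ± 93.6 CPM, did not pass (-1.18 ± 1.03, adjusted p = 0.587). PBS3, which joins isochorismate to glutamate, went from 6.7, 8.64 and 3.51 CPM to 204, 192 and 285 (5.06 ± 0.58, adjusted p = 1.03e-08), while wild type reached 841 ± 290 CPM (difference -2.57 ± 0.83, adjusted p = 0.0689).

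The regulators around this route were split. PAD4, a partner of EDS1 in immune signalling, rose from 14.9, 8.64 and 16.4 CPM to 165, 112 and 77.0 (3.17 ± 0.46, adjusted p = 7.47e-07). NPR1, the salicylic acid receptor and coactivator, rose from 38, 25.2 and 28.1 CPM to 70.7, 68.8 and 58.6 (1.11 ± 0.27, adjusted p = 0.000592). EDS1 itself was at 31.3, 14.4 and 21.1 CPM in mock and 41.4, 42.3 and 22.6 in Pma, overlapping groups that did not pass (0.65 ± 0.39, adjusted p = 0.151). NDR1, needed by another class of immune receptors, was at 24.6, 11.5 and 18.7 CPM and then 20.4, 11.6 and 9.19 (-0.40 ± 0.36, adjusted p = 0.345, same sign in 2 of 3 experiments). For EDS1 and NDR1 the response was below that of wild type, by -1.90 ± 0.55 (adjusted p = 0.0453) and -1.85 ± 0.51 (adjusted p = 0.0366), and neither difference passed without the experiment 3 Pma library of the triple mutant (adjusted p = 0.17 and 0.149).

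All 3 measured members of the N-hydroxypipecolic acid pathway rose, beside 27.8% of all tested genes. ALD1, the first enzyme of pipecolic acid synthesis, was at 1.49, 0 and 0 CPM in mock and 360, 407 and 208 in Pma, a ratio of 583 (95% interval of counting error 161 to 4820). FMO1, which hydroxylates pipecolic acid, went from 1.49, 0.72 and 0 CPM to 112, 72.2 and 30.4, a ratio of 90.5 (30.7 to 441). UGT76B1, which adds glucose to N-hydroxypipecolic and salicylic acid, went from 0.744, 0 and 0 CPM to 129, 78.8 and 16.3, a ratio of 289 (51.5 to 11446). None of the 3 genes overlapped between mock and Pma, which was also so for 53.9% of all tested genes. For FMO1 and UGT76B1 the lowest Pma value was in experiment 3. Wild type Pma leaves held 987 ± 531 CPM of ALD1, 839 ± 61.0 of FMO1 and 286 ± 82.5 of UGT76B1. Because at least 1 of the mock groups held 3 counts or fewer, no fitted difference in response is given for them.

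The letters GAAATTT are known as a binding motif of CBP60g and SARD1, and the 300 bases before ICS1, FMO1 and ALD1, which are genes of salicylic and N-hydroxypipecolic acid synthesis, all hold them. The sequences are from RefSeq (TAIR10.1), each written 5′ to 3′ on the strand of its gene, with matches to the motif or to its reverse complement AAATTTC in capitals. ICS1 is at chr1:28069995-28070294 on the plus strand with 2 matches, FMO1 at chr1:6653196-6653495 on the minus strand with 4, and ALD1 at chr2:5768117-5768416 on the plus strand with 2. In FMO1 and ALD1 a motif and its reverse complement overlap as GAAATTTC and count as 2. The windows of PBS3, EDS5, SARD1, CBP60G, PR1 and NIMIN1 hold 0 matches, which says only that these letters are not in those windows.
ICS1: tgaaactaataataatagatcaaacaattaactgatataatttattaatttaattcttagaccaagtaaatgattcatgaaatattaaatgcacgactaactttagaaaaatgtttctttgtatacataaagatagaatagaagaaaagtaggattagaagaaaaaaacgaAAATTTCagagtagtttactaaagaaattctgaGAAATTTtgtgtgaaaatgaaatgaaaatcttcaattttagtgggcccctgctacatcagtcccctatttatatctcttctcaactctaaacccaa
FMO1: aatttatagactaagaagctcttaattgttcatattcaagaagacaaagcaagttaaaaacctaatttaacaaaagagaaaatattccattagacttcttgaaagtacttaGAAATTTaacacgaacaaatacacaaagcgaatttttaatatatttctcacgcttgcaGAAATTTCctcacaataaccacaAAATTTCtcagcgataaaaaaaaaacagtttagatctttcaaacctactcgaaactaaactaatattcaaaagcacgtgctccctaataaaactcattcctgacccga
ALD1: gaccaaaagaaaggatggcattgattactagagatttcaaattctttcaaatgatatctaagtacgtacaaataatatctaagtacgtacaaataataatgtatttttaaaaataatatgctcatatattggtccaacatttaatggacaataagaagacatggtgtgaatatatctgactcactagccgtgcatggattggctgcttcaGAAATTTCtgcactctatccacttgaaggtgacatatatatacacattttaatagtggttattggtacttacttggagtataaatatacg

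The same letters are common in such windows. GAAATTT, on either strand, was found in 15.3% of the 300-base windows of all 15078 tested genes with a window, in 16.6% of genes that rose in the triple mutant, in 15% of those that fell, and in 18.4% of the 217 genes that rose in wild type and had a lower response in the triple mutant. TTGAC, the core of the W-box that WRKY factors bind, was in 50.4% of all windows and in 65.4% of the genes that rose at least 16-fold. TGACG, the core bound by TGA factors, which work with NPR1, was in 22.5% of all windows and 35.9% of the 217 genes. CACGTG, the G-box bound by MYC2 among others, was in 8.37% of all windows, 12.6% of the genes that rose at least 16-fold and 4.61% of the 217. TTGAC and TGACG share letters where they overlap as TTGACG. A match is a description of the sequence, not a site, and the shares were not tested.

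Markers of the salicylic acid response moved unevenly. Of 21 markers 12 rose, 1 fell and 8 did not pass, where 27.8% of all tested genes rose and 30.5% fell. The median change was 1.96 against 4.53 in wild type, where 19 rose. PR1, the standard marker, was at 29, 5.04 and 7.03 CPM in mock and 469, 85.4 and 10.6 in Pma. The Pma value of experiment 3 lay below the mock value of experiment 1, so the groups overlap, although PR1 passed (3.47 ± 1.16, adjusted p = 0.011). It did not pass without the Pma library of experiment 1 (adjusted p = 0.114). Wild type Pma leaves held 6247 ± 1552 CPM of PR1, and the response of the triple mutant was lower by -7.63 ± 1.80 (adjusted p = 0.0177). This difference did not pass in edgeR without the triple mutant's mock library of experiment 1 (-7.16, adjusted p = 0.106). It also did not pass without its Pma library of experiment 3 (-7.03, adjusted p = 0.0711).

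PR2, a glucanase, and PR5, a thaumatin-like protein, did not follow PR1. PR2 rose from 8.93, 2.16 and 9.37 CPM to 2478, 1909 and 1722 (8.43 ± 1.1, adjusted p = 1.21e-07), and PR5 from 16.4, 6.48 and 45.7 CPM to 1725, 443 and 268 (4.91 ± 0.82, adjusted p = 6.44e-06). Wild type Pma leaves held 1244 ± 537 CPM of PR2 and 339 ± 217 of PR5, and neither difference in response passed (1.81 ± 1.31, adjusted p = 0.48, and 1.71 ± 1.03, adjusted p = 0.376). GRX480, a glutaredoxin that binds TGA factors, went from 2.23, 0 and 0 CPM to 235, 216 and 153, a ratio of 244 (83.3 to 1186), beside 185 ± 30.6 CPM in wild type Pma. In all 3 genes every triple mutant Pma library lay above every mock library, where 53.9% of all tested genes had no overlap in either direction.

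For 7 of the markers the response was lower than in wild type, which was so for 1.6% of all tested genes. Among the 7 were PR1 and the 5 that follow. GRXS13, another glutaredoxin, was at 4.46, 2.88 and 9.37 CPM in mock and 11.5, 8.29 and 1.41 in Pma, overlapping groups that did not pass (0.41 ± 0.70, adjusted p = 0.642, 2 of 3 experiments), against 145 ± 41.3 CPM in wild type Pma. Its response was lower by -5.40 ± 1.02 (adjusted p = 0.00414). NIMIN1, which binds NPR1, was at 64.7, 5.04 and 16.4 CPM and then 12.6, 29 and 5.65 (-0.83 ± 0.70, adjusted p = 0.316, 2 of 3 experiments), against 3.38 ± 2.90 and then 66.3 ± 22.2 in wild type, and its response was lower by -5.10 ± 1.08 (adjusted p = 0.00904). LURP1, a defence gene of uncertain function, was at 607, 92.9 and 413 CPM and then 352, 401 and 124 (-0.30 ± 0.64, adjusted p = 0.708, 2 of 3 experiments). Wild type LURP1 went from 81.2 ± 27.9 to 1352 ± 70.1 CPM (difference -4.37 ± 0.95, adjusted p = 0.0101). For PR1, GRXS13, NIMIN1, LURP1, WRKY70 and SARD1 the mean mock level in the triple mutant was above that in wild type. Such a mock level enters the difference in response. This may also hold for WRKY53, PCR1, SOBIR1, CRT3, EDS1, NDR1, JAZ11 and GSTU19, whose wild type mock levels are not given here. Wild type mock leaves held 3.92, 1.46 and 4.7 CPM of PR1 and 1.96, 5.12 and 0 of GRXS13. WRKY70, a WRKY factor that acts downstream of salicylic acid, was at 734, 177 and 350 CPM in mock and 1461, 1129 and 507 in Pma, and it rose although the groups overlap (1.31 ± 0.50, adjusted p = 0.0252), whereas wild type went from 108 ± 57.2 to 1823 ± 166 (difference -2.89 ± 0.71, adjusted p = 0.0225). The rise of WRKY70 did not pass without the Pma library of experiment 1 (1.28, adjusted p = 0.0577) or 2 (1.12, adjusted p = 0.0825) or the mock library of experiment 2 (1.08, adjusted p = 0.109). WRKY53, a related factor, was at 39.4, 10.1 and 5.85 CPM and then 34.0, 23.2 and 12.0, overlapping groups that did not pass (0.40 ± 0.49, adjusted p = 0.50, 2 of 3 experiments), and its response was lower by -2.89 ± 0.70 (adjusted p = 0.02). Among the genes outside the lists, PCR1, a membrane protein linked to cadmium resistance, had one of the lowest differences from wild type. It was at 226, 59.7 and 258 CPM in mock and 955, 637 and 87.6 in Pma, overlapping groups that did not pass (1.59 ± 0.82, adjusted p = 0.0945, 2 of 3 experiments), while wild type Pma leaves held 6507 ± 508 (difference -5.34 ± 1.19, adjusted p = 0.0126).

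**Figure D1:**
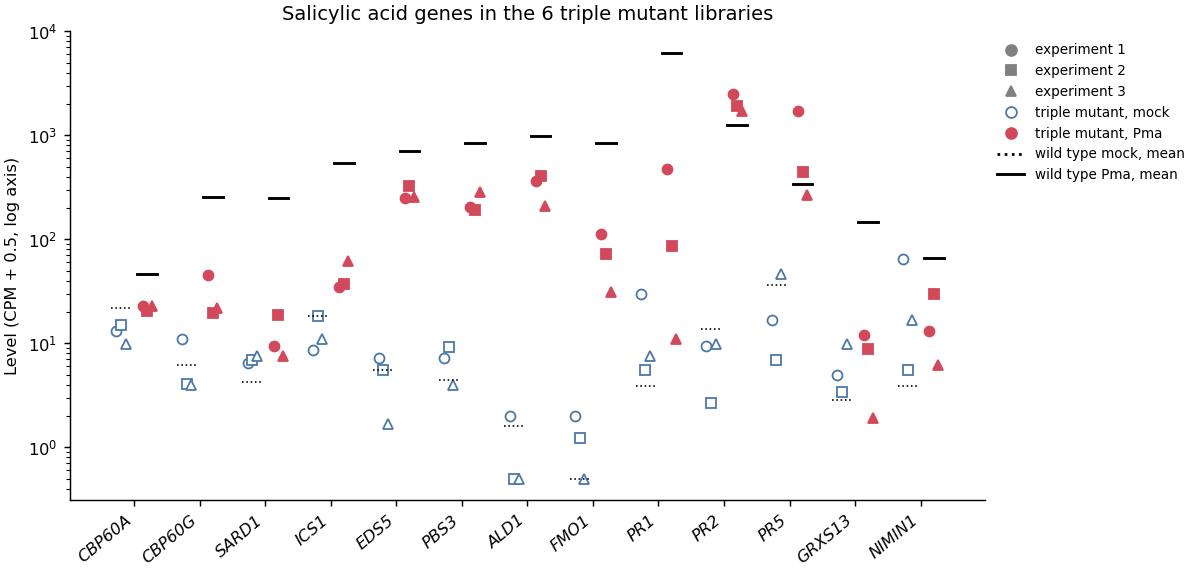
Levels of 13 genes in the 6 triple mutant libraries (CPM plus 0.5 on a log axis), with open symbols for mock, filled symbols for Pma, 1 symbol shape per experiment, and the wild type means of mock (dotted) and Pma (solid). The Pma values of CBP60G, SARD1, ICS1, FMO1, PR1 and GRXS13 lie far under the wild type Pma mean, and those of NIMIN1 lie less far under it. PR2 lies between 1722 and 2478 CPM in Pma, above the wild type mean of 1244.

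The salicylic acid turnover genes include BSMT1, a methyltransferase that makes the volatile methyl salicylate and is also induced by coronatine. BSMT1 was at 1.49, 3.6 and 1.17 CPM in mock and 281, 2089 and 5187 in Pma (9.56 ± 0.98, adjusted p = 2.18e-10). Its highest Pma value was in experiment 3, where PR1 had its lowest. Of the 5 tested turnover genes 4 rose, beside 27.8% of all tested genes. Their median was 4.50, or 2.25 with a gene at 0 in mock set at its bound.

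Camalexin synthesis, the making of the main antimicrobial indole of the species from tryptophan, rose throughout. All 14 tested members of the list rose, beside 27.8% of all tested genes. Their median was 4.25, beside 4.35 in wild type. CYP71A13 went from 7.44, 0.72 and 4.68 CPM to 2807, 1101 and 904 (8.57 ± 0.91, adjusted p = 2.39e-09). PAD3, the last enzyme, went from 2.23, 1.44 and 3.51 CPM to 1680, 663 and 632 (8.68 ± 0.81, adjusted p = 9.68e-11), close to the wild type level of 683 ± 188, and its difference in response of -0.61 ± 1.3 did not pass (adjusted p = 0.865). No member had a lower response than wild type, and 3 had a higher one. CYP79B3, which makes the indole oxime shared with indole glucosinolates, went from 26.8, 33.8 and 28.1 CPM to 163, 268 and 1014, while wild type stayed at 35.6 ± 13.2 and 42.3 ± 15.1 (difference 3.68 ± 0.67, adjusted p = 0.00365). The others were GGP1, a peptidase acting on glutathione conjugates (difference 1.21 ± 0.35, adjusted p = 0.0426), and TSB1, a tryptophan synthase subunit (1.2 ± 0.32, adjusted p = 0.0315).

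The indole glucosinolate list, for the tryptophan-derived mustard oil precursors, had 9 of 13 members higher and 1 lower. IGMT1 methylates indole glucosinolates and has near-identical relatives. It was at 0 in all 3 mock libraries and at 160, 92.9 and 348 CPM in Pma, at least 240-fold higher. Pma leaves of wild type held 15.1 ± 12.4 CPM of IGMT1 and those of chp60g sard1 192 ± 105. IGMT5, from the same family, went from 6.7, 0 and 1.17 CPM to 135, 17.4 and 331 (6.05 ± 0.73, adjusted p = 3.62e-09), and its response exceeded that of wild type by 4.97 ± 1.09 (adjusted p = 0.00889). The aliphatic glucosinolates, made from methionine, had 7 of 16 members lower and 1 higher, while 8 did not pass. Over all tested genes 30.5% were lower and 27.8% higher. Estimates of this list were below 0 for 15 of 16 members, at a median of -1.43. MYB28, their main regulator, fell from 50.6, 102 and 52.7 CPM to 3.14, 5.81 and 5.65 (-3.83 ± 0.59, adjusted p = 1.69e-06). Its partner MYB29 fell from 17.9, 36 and 30.4 CPM to 4.19, 4.98 and 9.89 (-2.16 ± 0.51, adjusted p = 0.000462), less far than in wild type, where it reached 0.732 ± 0.635 (difference 3.11 ± 0.91, adjusted p = 0.0435).

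Genes for sensing microbial patterns mostly rose, with 17 of 22 higher and 1 lower, beside 27.8% and 30.5% of all tested genes. Their median was 1.24. The 1 that fell was FLS2, the flagellin receptor, from 26.0, 14.4 and 19.9 CPM to 12.0, 7.46 and 0.707 (-1.65 ± 0.61, adjusted p = 0.0215). It did not pass without the Pma library of experiment 3 (adjusted p = 0.103), in which it was lowest, or the mock library of experiment 3 (adjusted p = 0.0996). SOBIR1, a coreceptor of receptor-like proteins, rose from 75.2, 23.8 and 64.4 CPM to 162, 210 and 98.2 (1.55 ± 0.42, adjusted p = 0.00194), by less than in wild type, where it reached 270 ± 21 (difference -2.0 ± 0.59, adjusted p = 0.0483). Genes for folding proteins in the endoplasmic reticulum, which serve the secretion of defence proteins, rose in 14 of 15 cases at a median of 2.94. BIP3, a stress-induced chaperone, went from 2.23, 0 and 1.17 CPM to 63.4, 49.8 and 55.8 (5.64 ± 0.76, adjusted p = 7.71e-08). The member that did not pass was CRT3, a calreticulin that helps mature immune receptors, at 229, 77.0 and 131 CPM in mock and 216, 300 and 126 in Pma (0.61 ± 0.40, adjusted p = 0.195, 1 of 3 experiments), with a response below that of wild type (-2.08 ± 0.57, adjusted p = 0.0357).

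Glutathione transferases, which detoxify by adding glutathione, rose in 13 of 15 tested cases and fell in 1, beside 27.8% and 30.5% of all tested genes. Their median was 5.68 (4.91 with genes at 0 in mock set at their bound). GSTU4 went from 4.46, 1.44 and 0 CPM to 1403, 1038 and 1165 (9.07 ± 0.72, adjusted p = 3.19e-12). GSTU19, an abundant member, went from 330, 417 and 329 CPM to 1208, 946 and 771 (1.45 ± 0.31, adjusted p = 0.000149), without overlap. Wild type Pma leaves held 5099 ± 452 CPM, and the response of the triple mutant was lower by -2.41 ± 0.43 (adjusted p = 0.00265). Reads of neighbouring family members can be shared, so these values are uncertain to that extent.

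The jasmonate pathway rose at each level. Of the genes of jasmonate synthesis 12 of 13 rose and 1 fell, where 27.8% of all tested genes rose and 30.5% fell. Their median was 4.45, beside 2.44 in wild type. LOX2, the chloroplast lipoxygenase that starts the pathway, went from 375, 341 and 336 CPM to 5148, 8323 and 12718 (4.60 ± 0.49, adjusted p = 3.22e-09). AOS, which makes allene oxide, went from 187, 199 and 179 CPM to 812, 1467 and 2868 (3.07 ± 0.33, adjusted p = 3.2e-09), where wild type went from 232 ± 34.2 to 334 ± 109 (difference 2.58 ± 0.44, adjusted p = 0.0022). AOC4, an allene oxide cyclase, went from 43.9, 40.3 and 23.4 CPM to 46.1, 87.9 and 309 (1.81 ± 0.43, adjusted p = 0.000549), with the difference from wild type at 2.78 ± 0.61 (adjusted p = 0.0112). OPR3, a reductase in the peroxisome, went from 26.0, 18.7 and 12.9 CPM to 539, 615 and 1111 (5.20 ± 0.43, adjusted p = 2.62e-11). The member that fell was JAR1, which couples jasmonate to isoleucine, from 38.7, 59.7 and 35.1 CPM to 18.3, 26.5 and 24.0 (-0.96 ± 0.21, adjusted p = 0.000248).

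In jasmonate signalling and turnover 21 of 24 genes were higher and 2 lower, beside 27.8% and 30.5% of all tested genes. Their median was 5.23, beside 4.16 in wild type. Jasmonate outputs rose in 13 of 15 at a median of 5.63, beside 5.31 in wild type. The median differences in response from wild type were 0.55 and 0.14. Only 1 signalling gene, with a lower response, and no output gene had a called difference. JAZ10, a repressor induced by the hormone, went from 2.23, 0.72 and 0 CPM to 169, 400 and 664 (8.22 ± 0.78, adjusted p = 3.15e-11). MYC2, the main transcription factor of the pathway, went from 38.7, 31 and 10.5 CPM to 125, 505 and 632 (3.69 ± 0.47, adjusted p = 7.65e-08), and JMT, which methylates jasmonate, from 1.49, 1.44 and 0 CPM to 134, 368 and 748 (8.17 ± 0.75, adjusted p = 9e-11). COI1, the receptor, fell from 20.1, 25.2 and 30.4 CPM to 14.1, 19.1 and 9.19 (-0.82 ± 0.30, adjusted p = 0.0211). COI1 did not pass without the Pma library of experiment 3 (adjusted p = 0.136) or without the mock library of experiment 1, 2 or 3 (adjusted p = 0.0667, 0.0545 and 0.182). VSP2, a vegetative storage protein with a near copy in VSP1, went from 11.9, 7.2 and 3.51 CPM to 1544, 4587 and 13876 (9.30 ± 1.46, adjusted p = 2.39e-06), beside 821 ± 865 CPM in wild type Pma (difference 3.99 ± 1.64, adjusted p = 0.163). JAZ11, the 1 signalling gene with a called difference from wild type, was at 14.1, 20.2 and 14.1 CPM in mock and 12.0, 24.9 and 26.1 in Pma (0.33 ± 0.27, adjusted p = 0.296, 2 of 3 experiments), below the wild type response by -1.50 ± 0.39 (adjusted p = 0.0264).

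Other hormone and stress lists moved in parts. Of 22 abscisic acid genes 5 rose and 9 fell, near the shares of all tested genes (27.8% higher and 30.5% lower). HAI1, a phosphatase that damps the hormone's signal, rose from 7.44, 4.32 and 1.17 CPM to 118, 254 and 155 (5.11 ± 0.65, adjusted p = 3.47e-08). COR15B, a cold and drought protein, was at 369, 61.9 and 128 CPM in mock and 39.8, 9.12 and 102 in Pma, so it fell with overlapping groups (-1.74 ± 0.51, adjusted p = 0.00394), less far down than in wild type, which reached 7.8 ± 3.85 (difference 3.07 ± 0.76, adjusted p = 0.0232). Without the Pma library of experiment 1 the fall of COR15B did not pass (-1.25, adjusted p = 0.0521). Ethylene genes rose in 7 of 11 cases. ACS2, a rate-setting synthase of ethylene, went from 0.744, 0.72 and 1.17 CPM to 58.7, 120 and 182, a ratio of 136 (46.2 to 660), and ACO4, the last enzyme, from 168, 181 and 265 CPM to 1987, 1923 and 1222 (3.06 ± 0.33, adjusted p = 3.77e-09). Chlorophyll breakdown and senescence genes rose in 8 of 11 cases, among them PAO, which opens the chlorophyll ring, from 42.4, 73.4 and 49.2 CPM to 179, 436 and 662 (2.86 ± 0.30, adjusted p = 2.1e-09), and SAG13, an early senescence marker, from 8.19, 4.32 and 3.51 CPM to 1370, 1350 and 601 (7.63 ± 0.85, adjusted p = 7.54e-09).

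Of 6 tested calmodulin-like genes 4 rose and 1 fell, with CML38, a calcium sensor induced by wounding, going from 2.23, 0.72 and 5.85 CPM to 242, 255 and 750 (7.13 ± 0.65, adjusted p = 1.6e-10). Among 7 tested flavonoid genes 3 rose and 2 fell, beside 27.8% higher and 30.5% lower over all tested genes. PAL2, an entry enzyme of phenylpropanoid synthesis, rose from 28.3, 54.0 and 62.1 CPM to 62.8, 99.5 and 196 (1.27 ± 0.28, adjusted p = 0.000264), beyond wild type by 1.44 ± 0.40 (adjusted p = 0.0359). TT4, chalcone synthase, was at 3.72, 31.7 and 45.7 CPM in mock and 1.05, 16.6 and 138 in Pma (0.70 ± 0.60, adjusted p = 0.328, 1 of 3 experiments). Its difference from wild type, which fell from 48.1 ± 8.91 to 3.37 ± 4.90, was 5.06 ± 0.98 (adjusted p = 0.00414), and without the Pma library of experiment 3 it was 2.89 (adjusted p = 0.126).

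Most of the highest rises by the naming rule were of genes with at most 3 counts in mock, whose order depends on the prior count. MDHAR, monodehydroascorbate reductase, was at 0 in the 3 mock libraries and at 562, 639 and 1415 CPM in Pma, at least 1015-fold higher, beside 96.9 ± 66.0 CPM in wild type Pma. CCOAMT, a caffeoyl-CoA methyltransferase family member, reached 278, 77.1 and 190 CPM, at least 235-fold higher, beside 30.5 ± 25.9 in wild type Pma. TPS02, a terpene synthase, reached 11, 117 and 261 CPM, at least 140-fold higher. MSRB7, a methionine sulfoxide reductase, went from 0.744, 0 and 0 CPM to 397, 670 and 1848, a ratio of 3311 (594 to 130816). These levels were not particular to the triple mutant. Pma leaves of chp60g sard1 held 1164 ± 304 CPM of MDHAR, 155 ± 70.6 of CCOAMT, 137 ± 102 of TPS02 and 1155 ± 597 of MSRB7. The bounds use 3 counts over the 3 mock libraries, and like the ratios they cover counting error only.

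Genes of light harvesting, the photosystems and carbon fixation all fell, beside 30.5% of all tested genes. The nuclear genes of the photosystems were lower in 37 of 37 cases with a median of -1.94, beside -3.47 in wild type, and the Calvin cycle genes in 15 of 15 with a median of -2.41, beside -4.38. Their summed level went from 231679, 310491 and 298248 CPM to 41007, 47500 and 138522 for the photosystem list, and from 23891, 45271 and 54076 CPM to 6407, 5532 and 16565 for the Calvin cycle. The Pma library of experiment 3 held the highest Pma level in both sums, and mock and Pma did not overlap in either. PSAN, a subunit of photosystem I, fell from 3088, 5729 and 5820 CPM to 376, 377 and 1637 (-2.71 ± 0.45, adjusted p = 5.17e-06). Wild type reached 184 ± 9.69 CPM, a deeper fall (difference 2.26 ± 0.60, adjusted p = 0.0308). LHCB1.1, an antenna protein with near-identical copies, fell from 6020, 8590 and 9080 CPM to 551, 1285 and 5191 (-1.97 ± 0.55, adjusted p = 0.00257), and RBCS3B, a small subunit of Rubisco with similar copies, from 3017, 5955 and 8693 CPM to 1090, 803 and 3617, where the Pma value of experiment 3 lay above the mock value of experiment 1 (-1.80 ± 0.40, adjusted p = 0.000285). Their differences from wild type were 2.55 ± 0.75 (adjusted p = 0.0491) and 2.58 ± 0.56 (adjusted p = 0.0101). LHCB2.3, another antenna gene, went from 1880, 4729 and 3000 CPM to 39.3, 41.5 and 562 (difference 4.73 ± 1.26, adjusted p = 0.0315). Without the triple mutant Pma library of experiment 3 the differences were 1.4 for PSAN, 1.5 for LHCB1.1, 1.91 for RBCS3B and 2.8 for LHCB2.3. None of them passed then.

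Expansins and xyloglucan enzymes loosen cell walls during leaf growth. Of 18 tested expansins and xyloglucan enzymes 12 fell and 2 rose, where 30.5% of all tested genes fell and 27.8% rose. Their median was -4.23. EXPA11, an expansin, went from 105, 96.4 and 137 CPM to 0 in all 3 Pma libraries, at least 165-fold lower, and XTH31, a xyloglucan hydrolase, from 23.8, 90 and 163 CPM to 0, at least 125-fold lower. HAT1, a homeodomain factor of shade growth, and IAA29, an auxin-induced repressor, were at 0 in Pma as well, at least 91.8-fold and 44.6-fold lower. The 2 members that rose were XTH24, from 50.6, 23 and 30.4 CPM to 1228, 562 and 580 (4.49 ± 0.43, adjusted p = 3.32e-10), and EXPA10, from 8.93, 2.88 and 9.37 CPM to 23, 167 and 229 (4.03 ± 0.62, adjusted p = 1.73e-06), with a response above that of wild type by 3.08 ± 0.88 (adjusted p = 0.0421). Markers of the epidermis moved with these falls, since all 5 tested members fell and their summed level was 1501 to 2264 CPM in mock and 21.5 to 248 in Pma. In wild type the sum went from between 1519 and 1623 CPM to between 35.3 and 59.7. Summed phloem markers were at 795 to 968 CPM in mock and 801 to 1344 in Pma, and guard cell markers at 43.2 to 63.3 and 61.3 to 97.0. Their members were mixed. Of 7 tested phloem markers 2 rose, 0 fell and 4 estimates were below 0, and of 3 tested guard cell markers 1 rose and 1 fell. Wild type sums were 654 to 788 and 822 to 875 CPM for phloem, and 56.4 to 74.6 and 107 to 149 for guard cells. The part of these cell types in the results was not tested.

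**Figure D2:**
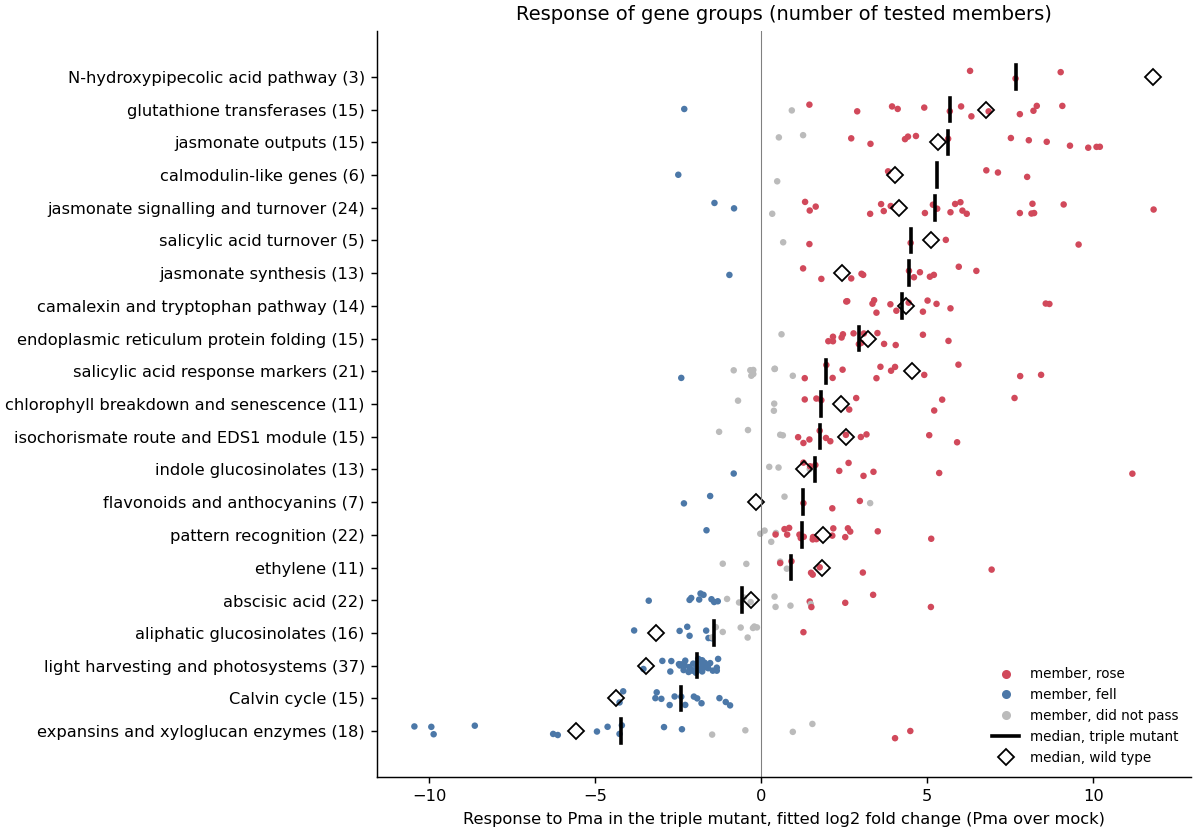
Fitted log2 response to Pma in the triple mutant for each tested member of 21 gene lists (points, coloured by whether the member rose, fell or did not pass), with the list median in the triple mutant (bar) and in wild type (diamond); values of genes near 0 counts depend on the prior count. The salicylic acid markers have a median of 1.96 against 4.53 in wild type, jasmonate synthesis 4.45 against 2.44, and the photosystem genes -1.94 against -3.47. Of the 13 jasmonate synthesis genes 2 had a called difference from wild type, and the median difference in response was 0.98.

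The response of the triple mutant differed from that of wild type in 589 genes (3.88%), with 347 values higher (2.29%) and 242 lower (1.6%). Of the 242 lower genes 217 rose in wild type, and of these 81 also rose in the triple mutant, 122 did not pass there and 14 fell. Of the 347 higher genes 166 fell in both genotypes and 80 fell in wild type without passing in the triple mutant, while 50 rose in the triple mutant alone by the test, 36 rose in both and 15 fell in wild type and rose in the triple mutant. Among the lists, 7 of 21 salicylic acid markers had a lower response and none a higher one, with a median difference of -2.89, beside 0.04 over all tested genes. Of the photosystem genes 8 of 37 had a higher value (median difference 1.67), of the Calvin cycle genes 3 of 15 (1.89), and of the jasmonate synthesis genes 2 of 13 (0.98).

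The number of these genes depended on single libraries. Without the experiment 3 Pma library of the triple mutant 66 genes passed (25 higher, 41 lower), and without that of experiment 1 it was 1176 (790 and 386). Of the 31 named differences from wild type, 7 passed without the experiment 3 Pma library, namely SARD1 (-5.04), ICS1 (-3.25), NIMIN1 (-4.85), GRXS13 (-4.94), GSTU19 (-2.22), AOS (2.24) and CYP79B3 (2.69). The salicylic acid markers then counted 2 lower, jasmonate synthesis 1 higher, and the photosystem and Calvin cycle lists none. Without the block for the experiment 65 genes passed, 30 higher and 35 lower. When any other 1 library of the 2 genotypes was left out, between 174 and 685 genes passed. With all libraries of experiment 1, 2 or 3 left out, 21, 5 and 0 of the 31 named differences passed.

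Against the double mutant chp60g sard1, which differs from the triple mutant in CBP60A, no gene passed (0 of 15161, 0.0%) in edgeR and none in DESeq2, which was run as an alternative. At an unadjusted p under 0.05 there were 384 genes in edgeR and 272 in DESeq2, and the lowest adjusted p was 1.0. This does not show that the genotypes responded alike. The 95% interval of the difference had a median half-width of 1.04 on the log2 scale, and it lay within 1 of 0 for 4120 genes (27.2%). ICS1 reached 53.8 ± 3.80 CPM in chp60g sard1 Pma leaves, a difference of -0.28 with an interval of -1.61 to 1.05. For PR1, at 103 ± 127 CPM there, the difference was 2.37 (-0.77 to 5.51), and for PR2, at 2586 ± 806 CPM, it was 1.58 (-1.01 to 4.17). AOS, at 1834 ± 548 CPM, differed by 0.13 (-0.74 to 1.00), CYP79B3 by 0.53 (-0.78 to 1.85) and PSAN by 0.25 (-0.95 to 1.45). CBP60A itself reached 65.6 ± 9.10 CPM in chp60g sard1 Pma leaves against 22.5, 19.9 and 22.6 in the triple mutant, but from a higher mock level of 27.5 ± 0.861, and its response differed by -0.39 (-1.14 to 0.36). Within the salicylic acid markers 19 of 21 estimates were above 0, at a median of 0.56, and in the protein folding list 14 of 15 at 0.29. Other lists leaned the other way, with 15 of 18 expansins and xyloglucan enzymes below 0 (median -0.25), 16 of 22 abscisic acid genes (-0.24) and 10 of 15 jasmonate outputs (-0.59), and none of these leanings was tested.

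Against the single mutant cbp60a, the response differed in 574 genes (3.79%), 505 higher (3.33%) and 69 lower (0.455%). Most of these differences were upward, among them in jasmonate synthesis (9 of 13 higher, median difference 2.53), the photosystems (32 of 37, 2.1) and the Calvin cycle (6 of 15, 1.88). AOS exceeded the response of cbp60a by 3.08 ± 0.44 (adjusted p = 0.00019), LOX2 by 2.35 ± 0.61 (adjusted p = 0.0238), OPR3 by 2.53 ± 0.53 (adjusted p = 0.0062), MYC2 by 2.32 ± 0.61 (adjusted p = 0.0267), JMT by 4.91 ± 1.02 (adjusted p = 0.00568) and VSP2 by 6.07 ± 1.64 (adjusted p = 0.0305). CYP79B3 was higher by 4.17 ± 0.68 (adjusted p = 0.000866), CML38 by 4.22 ± 0.90 (adjusted p = 0.00696) and LHCB1.1 by 3.66 ± 0.77 (adjusted p = 0.00617). Lower responses were found for ICS1 (-2.47 ± 0.64, adjusted p = 0.0237), which reached 590 ± 242 CPM in cbp60a, for GRXS13 (-3.62 ± 0.93, adjusted p = 0.0224) and for GSTU19 (-2.33 ± 0.43, adjusted p = 0.00271).

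Of the salicylic acid markers 2 had a higher response than in cbp60a, PR2 (4.97 ± 1.26, adjusted p = 0.0215, 2 of 3 experiments) and GRX480, which held too few mock counts for a value. The cbp60a mock leaves held 161 CPM of PR2 on average against 8.93, 2.16 and 9.37 in the triple mutant, and their PR1 was at 705 CPM in the library that stood apart against 11.7 and 14.1 in the others. Without that library 7 of the 13 named differences passed. Those that did not were PR2 (2.4, adjusted p = 0.315), LOX2 (1.58, adjusted p = 0.15), OPR3 (1.69, adjusted p = 0.0626), MYC2 (2.0, adjusted p = 0.0884), JMT (3.61, adjusted p = 0.0776) and VSP2 (5.36, adjusted p = 0.0872). Over all genes 422 genes passed, 354 higher and 68 lower, and without the experiment 3 Pma library of the triple mutant 108 did, 88 and 20. Without the block for the experiment it was 149, 132 and 17. Without the experiment 3 Pma library of the triple mutant 6 of the 13 named differences passed, namely AOS, OPR3, JMT, CYP79B3, GSTU19 and CML38, and the photosystem list counted none. AOS, CYP79B3, GSTU19 and CML38 passed both without that library and without the cbp60a mock library that stood apart. With all libraries of experiment 1, 2 or 3 left out, 11, 0 and 2 of the 13 named differences passed. Of the called genes 279 were called in the same direction against wild type and against cbp60a, 2 comparisons that share the triple mutant libraries.

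**Figure D3:**
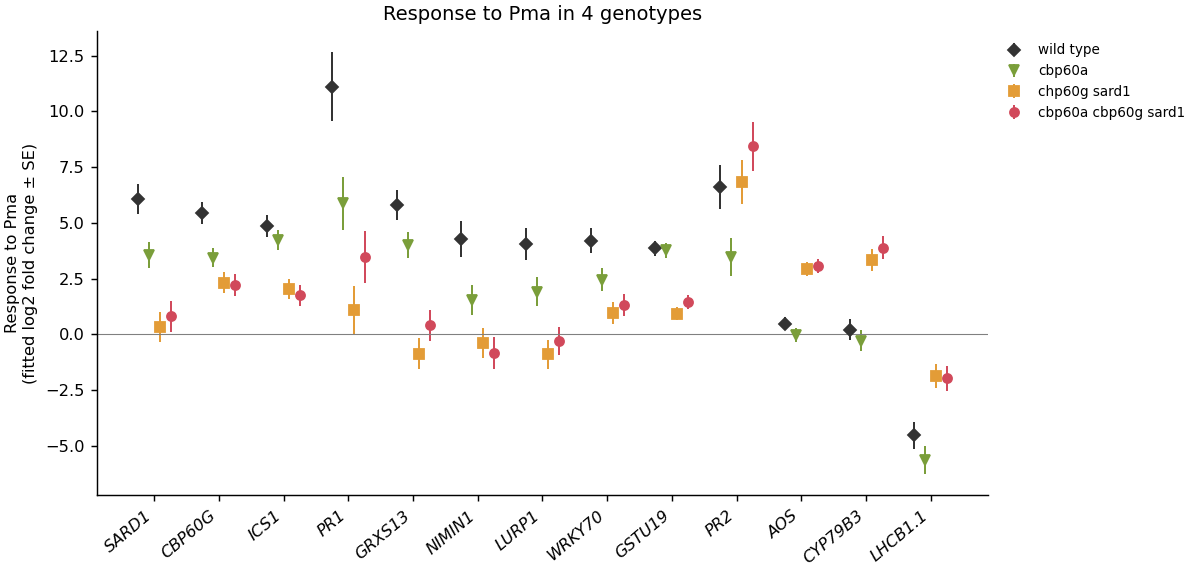
Fitted log2 response to Pma ± SE for 13 genes in wild type, cbp60a, chp60g sard1 and the triple mutant cbp60a cbp60g sard1, each from 3 mock and 3 Pma libraries. No difference from chp60g sard1 passed, and the triple mutant lies under wild type from SARD1 to GSTU19 and above it for AOS, CYP79B3 and LHCB1.1.

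The 3 Pma libraries of the triple mutant differed among themselves along the same lists. Of the 21 salicylic acid markers 13 were highest in experiment 1, 8 in experiment 2 and 0 in experiment 3. Of the 24 jasmonate signalling genes 20 were highest in experiment 3, as were 11 of 13 jasmonate synthesis genes, all 37 photosystem genes and all 15 Calvin cycle genes, whereas 14 of 15 protein folding genes were highest in experiment 1. Over all tested genes 37.3% were highest in experiment 1, 25.8% in experiment 2 and 36.8% in experiment 3. Much of this lean was also seen in the other genotypes. Among the wild type Pma libraries experiment 3 was highest for 17 of 24 jasmonate signalling genes, 8 of 13 jasmonate synthesis genes, 26 of 37 photosystem genes and 11 of 15 Calvin cycle genes. The same counts were 19, 10, 36 and 15 in cbp60a and 18, 13, 36 and 15 in chp60g sard1. Few salicylic acid markers were highest in experiment 3 there too, with 2 of 21 in wild type, 2 in cbp60a and 0 in chp60g sard1. The protein folding genes were highest in experiment 3 for 15 of 15 in wild type and 14 of 15 in cbp60a, and in experiment 1 for 13 of 15 in chp60g sard1. In chp60g sard1 the order for PR1 and VSP2 was the same, with PR1 at 248, 50 and 11.7 CPM and VSP2 at 4061, 6195 and 12984 in experiments 1 to 3. The photosystem sum was 60809, 52204 and 112252 CPM there, again highest in experiment 3. In wild type PR1 was at 7341, 4471 and 6929 CPM, VSP2 at 126, 1789 and 547, and the photosystem sum at 22754, 26116 and 29177. Each value of a library is 1 sample of 2 leaves, and what differed between the experiments was not tested.

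**Figure D4:**
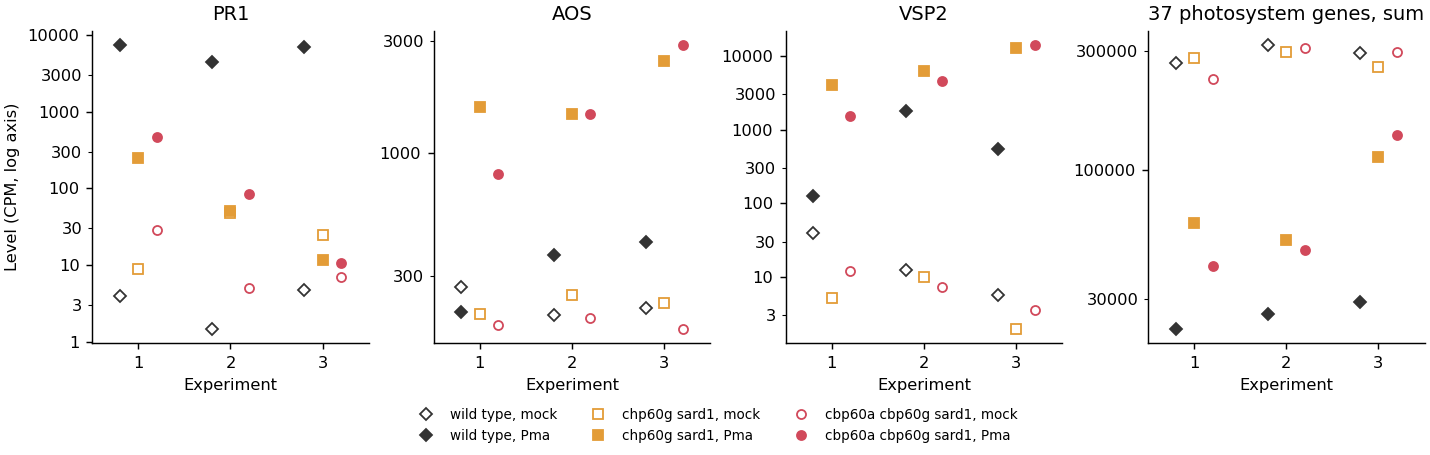
Levels of PR1, AOS, VSP2 and the sum of 37 photosystem genes (CPM, log axes) in each experiment for wild type, chp60g sard1 and the triple mutant, open symbols for mock and filled for Pma, 1 library each. In experiment 3 the triple mutant Pma library holds 10.6 CPM of PR1, 13876 of VSP2 and 138522 in the photosystem sum.

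**Figure D5:**
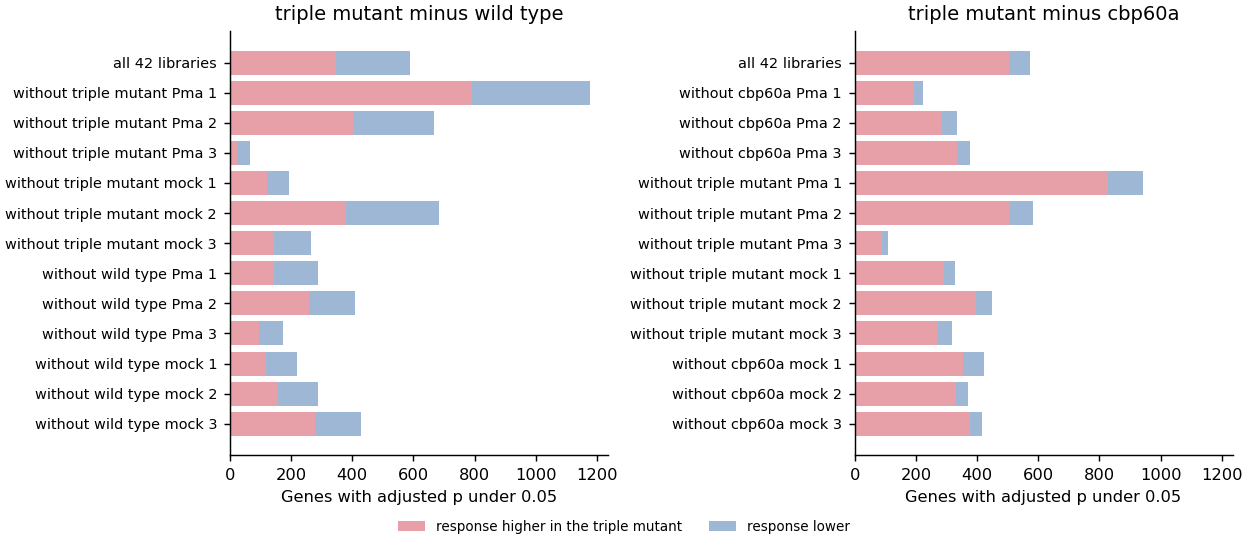
Number of genes whose response differed between the triple mutant and wild type (left) or cbp60a (right) at an adjusted p under 0.05, with all 42 libraries and with 1 library left out, split into higher and lower responses. The count falls from 589 to 66 and from 574 to 108 without the experiment 3 Pma library of the triple mutant.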

How the data were processed

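Smart-3SEQ, a method that sequences the 3' ends of transcripts with a 5-base molecular tag, was applied to leaves, per the labels' protocols. The authors deposited raw counts per locus for 24843 loci and 42 libraries, 3 of each of 14 groups (7 genotypes with mock or Pma). Per the submitters' processing notes, reads were split with bcl2fastq 2.17.1.14 and aligned to TAIR10 with STAR 2.4.2a. How reads were counted, the annotation release, the strand setting and any use of the molecular tags are not given in the sources used here. Molecules counted more than once would make counts less exact than intervals show, so intervals and bounds cover counting error only. The 164 loci without a count in any library stayed out of the tests.

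Counts were tested with edgeR 4.0.16 in R 4.3.3 (TMM, filterByExpr with a minimum count of 10 and a minimum total of 15, glmQLFit and glmQLFTest) on all 42 libraries, with 14 groups and the experiment as a block, which left 26 residual degrees of freedom. Benjamini-Hochberg adjustment was over 15161 genes. A difference in response is the response of the triple mutant minus that of another genotype. The 3 differences share the 6 triple mutant libraries. The pairing comes from the labels, which number independent experiments. Deviations from group means of the same experiment correlated at 0.372, 0.351 and 0.133 on average in experiments 1 to 3 (91 pairs of libraries each), and those of different experiments and groups at -0.142. The last value is no separate check, because deviations from a group mean sum to 0 over its 3 experiments. The mock and Pma libraries of the triple mutant correlated at 0.331, 0.214 and 0.029. Replicates differed by more than sampling noise.

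Symbols came from the TAIR10.1 annotation, which held 24701 of the loci and gave 9956 a symbol, and 368 of 387 list loci in 26 lists were paired by name with it. The members and the lists were chosen with earlier results of these data known. Genes were named if they belong to a list, or if they were among the 10 highest or lowest changes of a comparison with an adjusted p under 0.05, at least 5 CPM in the higher group, one direction in all 3 experiments and a symbol. Promoter windows of 300 bases were read from the TAIR10.1 genome and annotation in place of a promoter table. A gene with at most 3 counts in a group has a ratio with an exact interval, or against 0 a bound from 3 counts over the group. Alternatives were RLE size factors, no filter, no block, the compared genotypes alone, DESeq2 1.42.0, and each experiment or library left out. The steps were tested on simulated data. Figures were drawn with matplotlib 3.10.9.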

Additional observations from a re-analysis of the deposited data

Results flagged for a closer look

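Each result here is a difference between genotypes in the log2 response to Pma that passed the test of the difference itself, the interaction term of edgeR's quasi-likelihood test with adjusted p-values over all tested genes. Against wild type it was found for 589 genes and against cbp60a for 574. All single values are triple mutant minus the other genotype, from the fit with all libraries. Without the experiment 3 Pma library of the triple mutant, 7 of the 31 named differences from wild type and 6 of the 13 from cbp60a passed. Those numbers were 0 and 2 without all libraries of experiment 3, and 5 and 0 without those of experiment 2.

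Lower responses than in wild type were found for PR1 (-7.63), GRXS13 (-5.40), PCR1 (-5.34), SARD1 (-5.26), NIMIN1 (-5.10), LURP1 (-4.37), CBP60G (-3.21), ICS1 (-3.09), WRKY70 (-2.89), WRKY53 (-2.89), GSTU19 (-2.41), CRT3 (-2.08), SOBIR1 (-2.0), EDS1 (-1.90), NDR1 (-1.85) and JAZ11 (-1.50). Most of these named genes come from lists of salicylic acid synthesis, its regulation or its markers. The lists were chosen with earlier results known, so this share does not describe all genes with lower responses.

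Higher values than in wild type were found in jasmonate synthesis for AOC4 (2.78) and AOS (2.58), and in indole and camalexin metabolism for IGMT5 (4.97), CYP79B3 (3.68), GGP1 (1.21) and TSB1 (1.2). They were also found in photosynthesis for LHCB2.3 (4.73), RBCS3B (2.58), LHCB1.1 (2.55) and PSAN (2.26), all of which fell in both genotypes. The others were TT4 (5.06), MYB29 (3.11), EXPA10 (3.08), COR15B (3.07) and PAL2 (1.44).

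Against cbp60a the jasmonate genes VSP2 (6.07), JMT (4.91), AOS (3.08), OPR3 (2.53), LOX2 (2.35) and MYC2 (2.32) had higher responses. So did PR2 (4.97), CML38 (4.22) and CYP79B3 (4.17), and LHCB1.1 (3.66) fell less far. GRXS13 (-3.62), ICS1 (-2.47) and GSTU19 (-2.33) had lower responses.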

How the results depend on the processing

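The response of the triple mutant kept its size under every alternative (7198 to 9023 genes, 7198 to 8004 with 1 experiment left out) except the fit of its own libraries alone with the replicate block (5463), and 56 of 73 named genes kept their side of the threshold and direction in every setting. The differences did not: of 31 named differences from wild type and 13 from cbp60a, 0 and 0 kept their call in every setting. Without the replicate block, 65 genes differed from wild type and 149 from cbp60a. With the compared genotypes alone and the block, 186 and 182 did. Leaving out 1 experiment gave 6 to 543 genes against wild type and 7 to 745 against cbp60a, and leaving out 1 library gave 66 to 1176 and 108 to 941, the lowest without the experiment 3 Pma library of the triple mutant and the highest without that of experiment 1. RLE size factors gave 634 and 573, no filter 476 and 483, and DESeq2 864 and 677. The cause was not tested. Against chp60g sard1 every setting gave 0 genes, DESeq2 included. Changes that had not passed turned sign in some settings. With 1 experiment or triple mutant library left out, NIMIN1 lay between -2.05 and 0.64 (0.64 without experiment 1, 0.45 without mock library 1), GRXS13 between -0.22 and 1.44 (below 0 without experiment 1 or 2, at -0.22 and -0.09) and LURP1 between -1.21 and 0.41 (0.00 without experiment 1, 0.41 without experiment 3, and 0.03, 0.27 and 0.03 without mock library 1, mock library 3 and Pma library 3). CRT3 lay between -0.07 (without experiment 2) and 1.06. TT4 lay between -1.45 (without Pma library 3, adjusted p = 0.0467) and 1.23, and was at -1.07 without experiment 3 and -0.02 in the triple mutant libraries alone.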
